A study of Caenorhabditis elegans with 6 samples.

Results

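A set of 10 genes of the hydrogen sulfide and HIF-1 pathway of Caenorhabditis elegans was followed in whole worms with and without floxuridine (FUDR), out of 46926 genes in the deposited count table. The 10 are hif-1, egl-9, vhl-1, rhy-1, cysl-1, cysl-2, cysl-3, rips-1, cdo-1 and cth-2. The set was selected on the measured FUDR against OP50 differences of cysl-2 and rips-1, which were strongly lower in FUDR in these same libraries, so the differences between the groups are given for these 10 as a description and support no test. All 10 were found by symbol, and all 10 passed the filter on low counts, as did 17022 genes in all.

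The study measured poly(A)-selected RNA of wild-type (WT) worms at the L4 larval stage, by the labels. The OP50 group grew untreated on plates of the Escherichia coli strain OP50, and the FUDR group was given 50 µM FUDR, a nucleoside analogue that blocks thymidylate synthase and stops cell division. Each group had 3 libraries. The labels name no strain, sex or batch, and do not say whether the 3 libraries came from separate cultures, so the spread between them may be in part technical.

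As background, HIF-1 is the transcription factor of the hypoxia response. Under normal oxygen the prolyl hydroxylase EGL-9 marks it, and VHL-1, the substrate receptor of a ubiquitin ligase, has it degraded. In worms the membrane protein RHY-1 also restrains HIF-1, while CYSL-1, a relative of cysteine synthases, binds EGL-9 when hydrogen sulfide accumulates and blocks it. HIF-1 then raises genes that include egl-9, rhy-1 and cysl-2, so the RNAs of its own inhibitors are among its readouts. Hydrogen sulfide comes in part from cysteine, which CTH-2, a cystathionine gamma-lyase, makes and CDO-1, a cysteine dioxygenase, oxidises.

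The libraries held between 61312034 and 99234226 gene counts, and the 10 genes between 242 and 36083 counts in a library. Levels below are CPM, that is counts scaled to a common library size, here with TMM factors, and differences are log2 fold changes of FUDR over OP50 with their standard error (SE) from an edgeR fit over all tested genes. No sequence of these genes is shown. Markers of all 5 tissues sought were present in all libraries. Of 6 germline markers 5 fell and 0 rose (with 6 and 0 at an unadjusted p under 0.05, and with edgeR calls of 21.0% lower and 20.0% higher among all tested genes), with a summed level of 3443 to 3539 CPM in OP50 and 1717 to 2319 CPM in FUDR. The 5 muscle markers summed to between 8217 and 8881 CPM in OP50, and to 9293, 5984 and 3455 CPM in FUDR libraries 1, 2 and 3, so that FUDR library 3 stood lowest. Of the muscle markers 0 passed, also at an unadjusted p under 0.05. The summed neuron markers (181.2 to 188.6 CPM in OP50, at most 211.1 CPM in FUDR, 1 of 5 rose) and hypodermis markers (2300 to 2544 CPM and 2866 to 3552 CPM, 1 of 5 rose) were higher in every FUDR library. Most of the hypodermis sum was col-19 (2074 to 2376 CPM in OP50, 2698 to 3387 CPM in FUDR). Of the 5 hypodermis markers 3 had a log2 fold change below 0 and 2 above, with a median of −0.03. The summed intestine markers overlapped, at 1270 to 1456 CPM and 1377 to 1626 CPM, and 2 of 4 rose. The part of these shifts in the values below was not tested. The adult cuticle collagen col-19 (2074 to 3387 CPM) and the yolk gene vit-2 (8994 to 20610 CPM) were abundant in every library labelled L4.

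The genes hif-1, egl-9, vhl-1, cysl-1 and cdo-1 did not pass the threshold of the fit (adjusted p under 0.05) with all libraries. The genes rhy-1, cysl-2, cysl-3 and rips-1 were between 2.296 and 7.158-fold lower in FUDR, and cth-2 was 1.319-fold lower. Of the 10 genes 5 were past the threshold as lower and 0 as higher in edgeR, with the same 5 and 0 at an unadjusted p under 0.05, in DESeq2 and in limma-voom. Among all tested genes 21.0% were called lower and 20.0% higher (41.0% either way), and nothing is read from the difference, since this contrast chose the set. The median log2 fold change was −0.35 over the 10 genes and 0.05 over all tested genes.

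**Figure D1:**
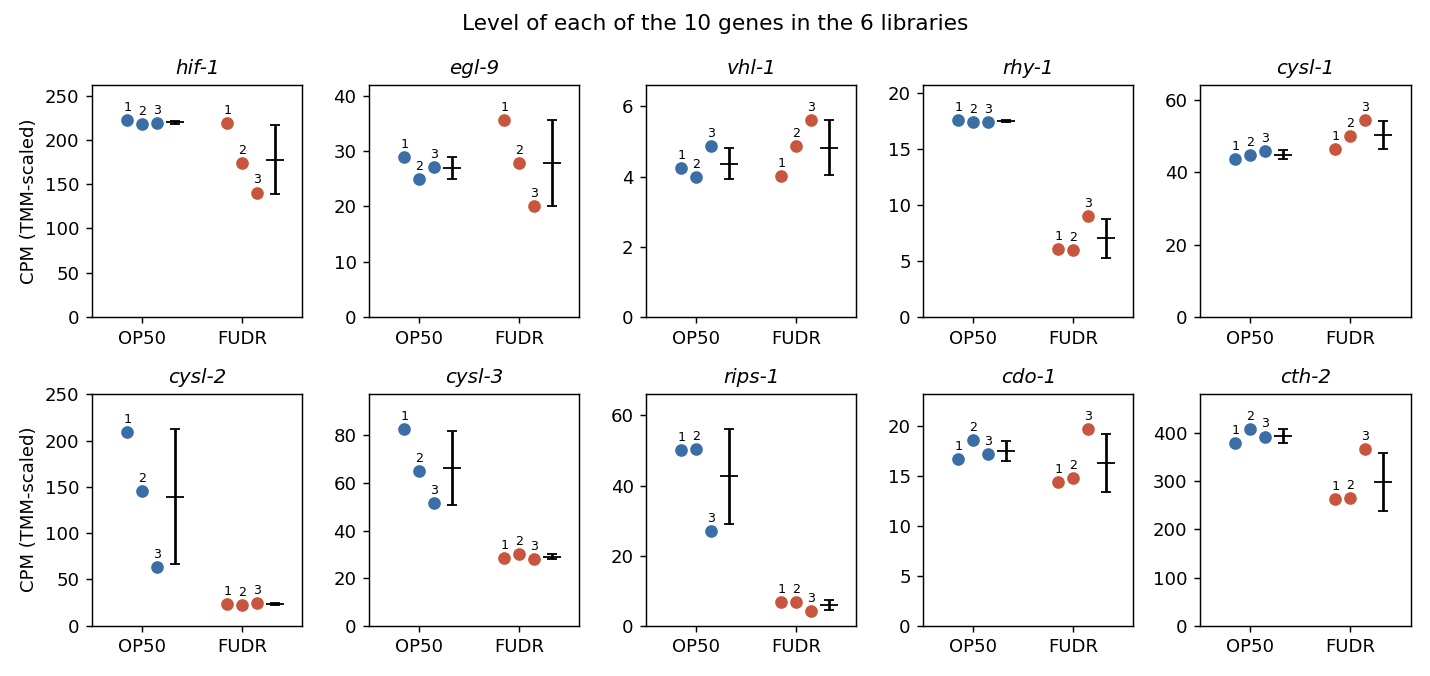
Level of each gene (CPM after TMM scaling, linear axis from 0) in the 3 OP50 and 3 FUDR libraries. Points are libraries with their replicate number, and bars are the mean and SD (n = 3). The FUDR points of rhy-1, cysl-2, cysl-3 and rips-1 lie below every OP50 point, with ratios of the lowest OP50 to the highest FUDR library of 1.94, 2.6, 1.72 and 3.96.

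The transcription factor gene hif-1 (WBGene00001851; chromosome V, 20780407 to 20785260, WBcel235, plus strand) had 222.2, 218.2 and 218.9 CPM in the OP50 libraries and 218.7, 173.7 and 140.6 CPM in the FUDR libraries. The OP50 libraries lay within 1.018-fold of each other, the first FUDR library lay among them and the other two FUDR libraries lay below. Its log2 fold change of −0.31 ± 0.146 (SE) did not pass the threshold. Without FUDR replicate 1 it was −0.49 and passed. The order of the FUDR libraries, 1 highest and 3 lowest, was also that of the summed germline and muscle markers, whose part in this value was not tested. In these bulk samples fewer cells of a type and less RNA per cell cannot be told apart.

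The prolyl hydroxylase gene egl-9 (WBGene00001178; chromosome V, 10468517 to 10476915, plus strand) had 28.91, 25.0 and 27.11 CPM in OP50 and 35.6, 27.87 and 20.12 CPM in FUDR. The FUDR libraries lay on both sides of all the OP50 libraries, in the same order as for hif-1. Their log2 fold change of 0.04 ± 0.183 (SE) turned sign with limma-voom. The ligase receptor gene vhl-1 (WBGene00006922; chromosome X, 11307356 to 11308518, plus strand) had 4.237, 4.001 and 4.864 CPM in OP50 and 4.01, 4.872 and 5.603 CPM in FUDR, and the groups overlapped. Its counts were the lowest of the set in every library except FUDR library 3, where those of rips-1 were lower. Its log2 fold change was 0.15 ± 0.16 (SE).

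The sulfide sensor gene cysl-1 (WBGene00007653; chromosome X, 9952579 to 9954533, minus strand) was steady, with 43.71, 44.9 and 46.0 CPM in OP50 and 46.43, 50.03 and 54.36 CPM in FUDR. All FUDR libraries were above all OP50 libraries, by little. The log2 fold change of 0.16 ± 0.0831 (SE) did not pass the threshold with TMM scaling and the filter on low counts. It did at 0.28 with the filter of 5 CPM, at 0.32 with upper quartile scaling and at 0.40 with library size only. Upper quartile scaling and library size only moved the median of all genes by 0.15 and 0.23 on the log2 scale. The filter of 5 CPM moved it by −0.03, but over another set of 10512 genes, so that value does not measure a common shift. Under that filter the other members still tested also moved up, for example hif-1 from −0.31 to −0.20 and rhy-1 from −1.32 to −1.20.

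The gene rhy-1 (WBGene00012324; chromosome II, 9161379 to 9163448, plus strand), a HIF-1 inhibitor and itself a HIF-1 target, had 17.59, 17.41 and 17.48 CPM in OP50 and 6.095, 5.966 and 8.999 CPM in FUDR. The OP50 libraries differed by no more than 1.01-fold, a spread lower than that of all but 0.587% of tested genes, and every FUDR library lay far below them. The log2 fold change was −1.32 ± 0.161 (SE), a 2.49-fold lower level.

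Of the cysteine synthase-like enzymes, cysl-2 (WBGene00010759; chromosome II, 14492874 to 14494451, minus strand) encodes a cyanoalanine synthase that detoxifies cyanide and is a standard HIF-1 reporter gene in worms. Its levels were 209.1, 146.0 and 63.47 CPM in OP50 and 23.01, 22.27 and 24.41 CPM in FUDR. The OP50 libraries spread over 3.29-fold and the FUDR libraries over 1.1-fold, and the groups did not overlap. The SD of log2 CPM in OP50, 0.882, was at the 96.7th percentile of all tested genes, against the 12.1th percentile for the SD of 0.0669 in FUDR. The log2 fold change of −2.59 ± 0.375 (SE) was −2.63 without FUDR replicate 3 but then no longer past the threshold.

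The related gene cysl-3 (WBGene00019962; chromosome V, 3774536 to 3776136, minus strand) had 82.68, 64.92 and 51.62 CPM in OP50 and 28.61, 30.06 and 28.13 CPM in FUDR. Its OP50 libraries stood in the same order as those of cysl-2, over 1.6-fold, and its FUDR libraries lay within 1.07-fold of each other. It differed by −1.20 ± 0.153 (SE) in log2. Its neighbour rips-1 (WBGene00019963; chromosome V, 3772021 to 3774609, plus strand), named for its link to RHY-1 in the worm's sulfide response, had 50.23, 50.55 and 26.97 CPM in OP50 and 6.811, 6.81 and 4.259 CPM in FUDR. Library 3 was the lowest of each group, and the groups did not overlap. The log2 fold change of −2.84 ± 0.283 (SE) was the lowest of the 10 and lay at the 0.047th percentile of all tested genes.

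The cysteine enzymes were closer to level. The cysteine dioxygenase gene cdo-1 (WBGene00018986; chromosome X, 862267 to 863578, minus strand), which HIF-1 activation raises in worms, had 16.72, 18.65 and 17.22 CPM in OP50 and 14.42, 14.85 and 19.71 CPM in FUDR. The groups overlapped, and the log2 fold change was −0.10 ± 0.133 (SE), with its sign turned under upper quartile scaling, library size only and the filter of 5 CPM. The cystathionine gamma-lyase gene cth-2 (WBGene00022856; chromosome II, 7056184 to 7057960, minus strand) had 379.4, 408.7 and 393.2 CPM in OP50 and 262.5, 265.3 and 367.6 CPM in FUDR. The third FUDR library came within 1.03-fold of the lowest OP50 library. Its log2 fold change of −0.40 ± 0.137 (SE) passed the threshold with all libraries, TMM scaling and the filter on low counts. It failed without any one of OP50 replicates 1, 2 and 3 or FUDR replicates 1 and 2. It also failed with library size only (−0.16), upper quartile scaling (−0.24) or the filter of 5 CPM (−0.29).

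Across the set, OP50 and FUDR libraries were fully apart for 6 of the 10 genes, against 54.7% of all tested genes. In 5 the FUDR libraries were below (26.7% of all genes) and in 1, cysl-1, above (28.0%). The third OP50 library was the lowest of its group for 3 of the 10 genes, cysl-2, cysl-3 and rips-1, and for 31.8% of all tested genes. Compared per kilobase of exon, cth-2 stood highest in OP50 at 296.5 ± 11.1 CPM per kilobase (SD, n = 3), followed by cysl-2 (124.2 ± 65.0), hif-1 (74.2 ± 0.717), cysl-3 (61.6 ± 14.5), cysl-1 (36.3 ± 0.93), rips-1 (29.6 ± 9.38), cdo-1 (22.1 ± 1.26), rhy-1 (10.5 ± 0.0548), egl-9 (7.95 ± 0.577) and vhl-1 (4.88 ± 0.499). The libraries of cysl-2 overlapped those of hif-1, those of hif-1 overlapped those of cysl-3, and those of rips-1 overlapped those of cdo-1. In FUDR cysl-2 dropped from rank 2 to rank 5 (20.7 ± 0.967 CPM per kilobase), level with cdo-1 (20.6 ± 3.71). There rhy-1 (4.21 ± 1.03) and rips-1 (4.14 ± 1.02) had the lowest means, and their libraries overlapped each other and those of vhl-1 (5.4 ± 0.891).

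Members share some sequence with neighbours. The 3′ ends of rips-1 and cysl-3 run into each other on opposite strands and share 74 exon bases, 5.14% of rips-1 and 6.86% of cysl-3. The strand setting of the counting is not given in the sources used here, so reads of those bases cannot be assigned. On opposite strands, cysl-2 shares 36 exon bases with the nucleotide transporter gene vnut-1, rhy-1 shares 82 with W07A12.8, cdo-1 shares 127 (16% of its exon bases) with F56F10.2, and cth-2 shares 8 with ZK1127.3. Of these partners vnut-1 fell (38.7, 37.06 and 38.25 CPM in OP50 and 29.47, 29.8 and 23.81 CPM in FUDR, log2 fold change −0.46 ± 0.101, edgeR adjusted p = 0.00722), against −2.59 for cysl-2, and it was not called with library size only (−0.23, adjusted p = 0.0786). The log2 fold change was −0.19 for W07A12.8, 0.25 for F56F10.2 and 0.02 for ZK1127.3, and none of those 3 passed. The other overlaps, with piRNA and noncoding RNA genes, lay outside the exons of egl-9 and cdo-1.

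The other genes of the pathway were grouped in 5 lists with 38 written symbols, of which 35 were in the table and 34 were tested. The lists were written with earlier results of these data known, so their counts are no independent evidence. Of the 34, 10 fell and 2 rose at an edgeR adjusted p under 0.05 (29.4% and 5.88%, against 21.0% and 20.0% of all tested genes), and the median log2 fold change was −0.12. With library size only, 6 fell and 8 rose.

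**Figure D2:**
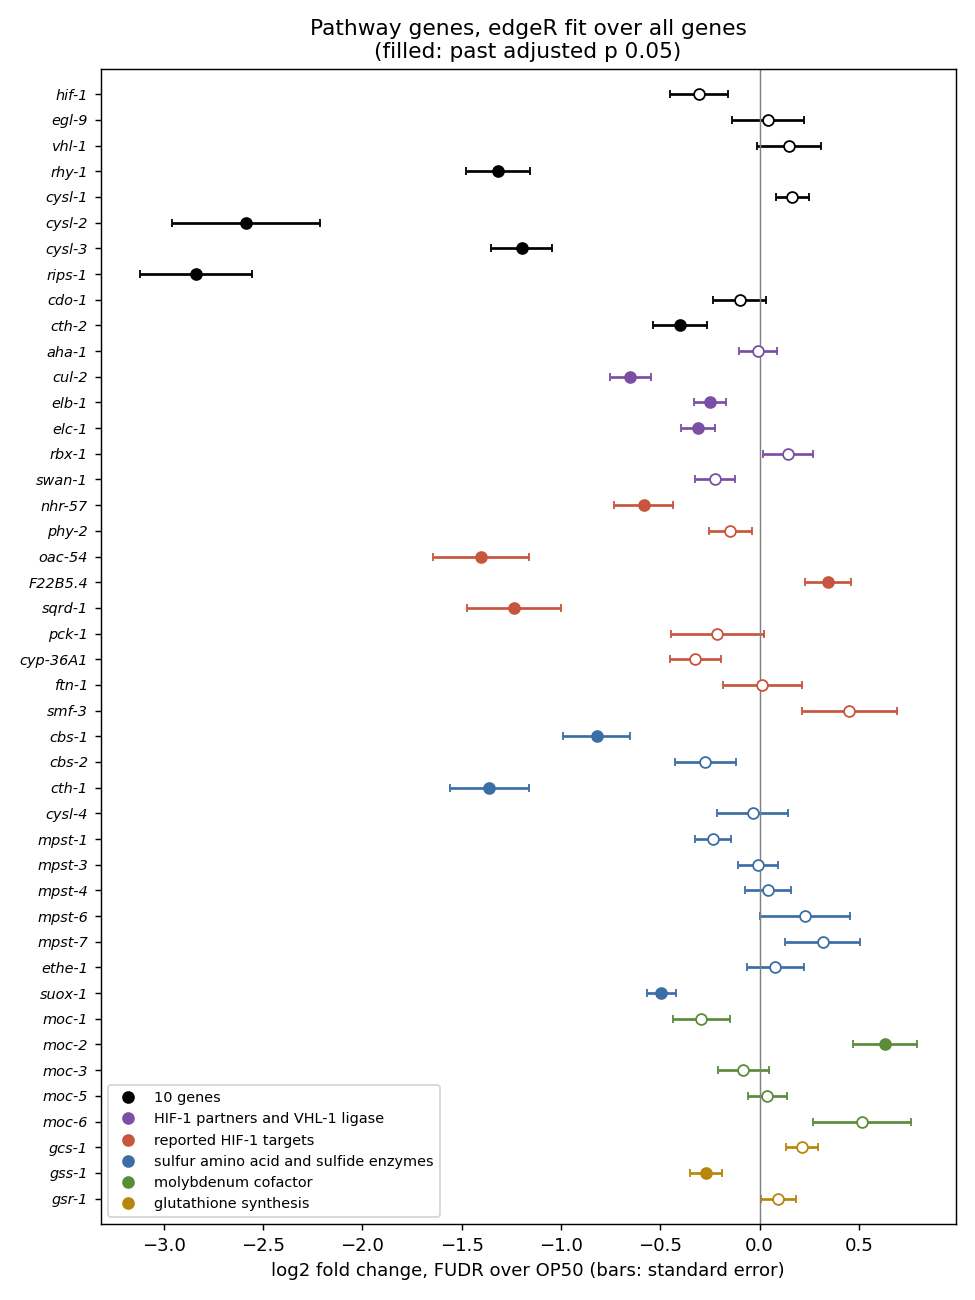
Log2 fold change of FUDR over OP50 for the 10 genes and the 34 tested genes of the 5 lists, with the standard error as bars. Filled points passed an adjusted p of 0.05 over all tested genes. The lowest points are rips-1 (−2.84) and cysl-2 (−2.59), followed by oac-54 (−1.40) and cth-1 (−1.36).

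Among genes reported in worms as HIF-1 targets, 3 of 9 fell and 1 rose (33.3% and 11.1%, against 21.0% and 20.0% of all tested genes). Without FUDR replicate 3 the counts were 5 and 2, with the filter of 5 CPM (which leaves the 3 that fell untested) 0 and 1, and with library size only 2 and 2. The acyltransferase gene oac-54 had 1.63, 1.24 and 1.347 CPM in OP50 and 0.6365, 0.498 and 0.4707 CPM in FUDR, for a difference of −1.40 ± 0.242 in log2 (edgeR adjusted p = 0.00223). The gene sqrd-1, for the sulfide:quinone oxidoreductase that starts the mitochondrial oxidation of hydrogen sulfide, had 9.326, 8.167 and 4.946 CPM in OP50 and 3.596, 3.302 and 2.645 CPM in FUDR (−1.24 ± 0.236, edgeR adjusted p = 0.00355). In both genes every FUDR library was below every OP50 library, and both calls held under all alternatives in which they were tested. The nuclear receptor gene nhr-57, another common HIF-1 reporter, fell by less, from 6.876, 6.315 and 5.249 CPM to 4.392, 4.244 and 3.676 CPM (−0.58 ± 0.148, edgeR adjusted p = 0.013), and was not called with library size only.

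The fourth target past the threshold was F22B5.4, which rose from 6.203, 6.067 and 5.331 CPM to 7.399, 7.741 and 7.217 CPM (0.34 ± 0.117, edgeR adjusted p = 0.0428). This call was lost with RLE scaling, without the count filter, and when any one library other than FUDR replicate 3 was left out. The prolyl 4-hydroxylase gene phy-2 (−0.15), the gluconeogenic gene pck-1 (−0.21), the cytochrome P450 gene cyp-36A1 (−0.32), the ferritin gene ftn-1 (0.01) and the metal transporter gene smf-3 (0.45) did not pass with all libraries. Without FUDR replicate 3, phy-2 (−0.28, edgeR adjusted p = 0.0139) and cyp-36A1 (−0.45, 0.0143) passed as lower and smf-3 (0.64, 0.0427) as higher. In DESeq2 cyp-36A1 passed (adjusted p = 0.0429), and with library size only smf-3 did (adjusted p = 0.0267). In worms HIF-1 is known to repress ftn-1 and to activate others of the list, so a median over the list (−0.21) mixes both kinds.

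**Figure D3:**
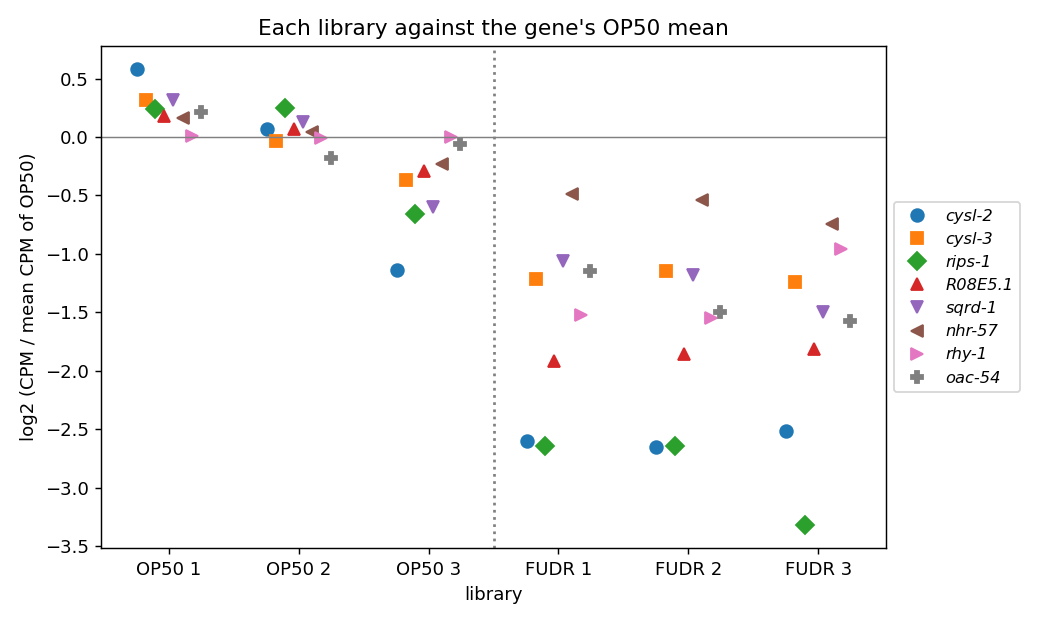
Log2 ratio of each library to the gene's own OP50 mean, for cysl-2, cysl-3, rips-1, R08E5.1, sqrd-1, nhr-57, rhy-1 and oac-54; each symbol is 1 library and the dotted line parts OP50 from FUDR. The third OP50 library is the lowest of its group for cysl-2, cysl-3, rips-1, R08E5.1, sqrd-1 and nhr-57, genes shown with their values known; it is the lowest for 31.8% of all tested genes and for 3 of the 10 pathway genes.

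Of 12 tested enzymes that make or clear hydrogen sulfide or handle sulfur amino acids, 4 fell and 0 rose in edgeR. The shares among all tested genes were 21.0% lower and 20.0% higher. At an unadjusted p under 0.05, 5 were lower and 0 higher. The 4 that fell in edgeR were sqrd-1, cbs-1, cth-1 and suox-1. The cystathionine beta-synthase gene cbs-1, which acts before the gamma-lyases on the way from homocysteine to cysteine, had 115.8, 119.7 and 112.9 CPM in OP50 and 50.86, 60.9 and 85.56 CPM in FUDR (−0.82 ± 0.169, edgeR adjusted p = 0.00563). The second cystathionine gamma-lyase gene, cth-1, had 83.06, 58.59 and 58.0 CPM in OP50 and 19.13, 29.21 and 29.29 CPM in FUDR (−1.36 ± 0.199, edgeR adjusted p = 0.00129). The FUDR libraries of both genes lay below all OP50 libraries, and the third FUDR library was the highest for cbs-1, as for cth-2.

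The sulfite oxidase gene suox-1, whose enzyme acts after CDO-1 in cysteine breakdown, fell from 41.55, 40.32 and 41.11 CPM to 29.14, 29.22 and 28.86 CPM (−0.50 ± 0.0722, edgeR adjusted p = 0.00102), with little spread in either group. The sulfurtransferase gene mpst-1 (−0.23 ± 0.0901, edgeR adjusted p = 0.0654) and the second cystathionine beta-synthase gene, cbs-2 (−0.27), did not pass with all libraries and no block. Without FUDR replicate 3 mpst-1 passed as lower (−0.29, edgeR adjusted p = 0.0237). The remaining 6 tested genes, cysl-4, mpst-3, mpst-4, mpst-6, mpst-7 and ethe-1, lay between −0.04 and 0.32, and mpst-2 was not tested, with at most 0.198 CPM in any library.

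Of the 6 genes for HIF-1's partner and the VHL-1 ligase, 3 fell and 0 rose in edgeR, with 3 and 0 at an unadjusted p under 0.05. In edgeR 21.0% of all tested genes were lower and 20.0% higher. The cullin gene cul-2 fell from 211.1, 210.3 and 208.2 CPM to 147.4, 137.9 and 115.5 CPM (−0.65 ± 0.103, edgeR adjusted p = 0.00152). Its FUDR libraries stood in the order of the summed germline and muscle markers, whose part was not tested. The elongin genes elc-1 (−0.31 ± 0.0858, edgeR adjusted p = 0.0187) and elb-1 (−0.25 ± 0.0803, edgeR adjusted p = 0.0337) fell by less, and neither was called with upper quartile scaling, with library size only, with the filter of 5 CPM, or when OP50 replicate 2, OP50 replicate 3 or FUDR replicate 2 was left out. That of elb-1 was lost too if the count filter, OP50 replicate 1 or FUDR replicate 1 was dropped. The HIF-1 dimer partner gene aha-1 (−0.01), rbx-1 (0.14) and swan-1 (−0.23) did not pass with all libraries and TMM scaling. Without FUDR replicate 3 swan-1 passed as lower (−0.31, edgeR adjusted p = 0.0223). With library size only rbx-1 passed as higher (0.38, edgeR adjusted p = 0.0498).

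Among 5 tested genes for the molybdenum cofactor that sulfite oxidase needs, moc-2 rose from 4.142, 5.522 and 4.672 CPM to 6.938, 6.572 and 8.641 CPM (0.63 ± 0.159, edgeR adjusted p = 0.0129). In that list 0 fell in edgeR or at an unadjusted p under 0.05. The edgeR shares of all tested genes were 21.0% lower and 20.0% higher. The other genes of the list, moc-1 (−0.29), moc-3 (−0.08), moc-5 (0.04) and moc-6 (0.51), did not pass with all libraries and TMM scaling. Without OP50 replicate 1 moc-1 passed as lower (−0.42, edgeR adjusted p = 0.043). With library size only moc-6 passed as higher (0.75, edgeR adjusted p = 0.0447). In glutathione synthesis and recycling, the glutathione synthetase gene gss-1 fell (−0.27 ± 0.0802, edgeR adjusted p = 0.0259), a call lost with upper quartile scaling, library size only, the filter of 5 CPM and each fit lacking OP50 replicate 2, OP50 replicate 3 or FUDR replicate 2. The genes gcs-1 (0.21) and gsr-1 (0.09) did not pass with TMM scaling and the filter on low counts. With the filter of 5 CPM, upper quartile scaling and library size only gcs-1 passed as higher (0.32, 0.37 and 0.44), and gsr-1 did with upper quartile scaling and library size only (0.25 and 0.32).

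Genes next to rips-1, cysl-2 and rhy-1 were looked at after these values were seen. The protein-coding gene R08E5.1, which lies on the other side of rips-1 from cysl-3, fell from 5.099, 4.728 and 3.669 CPM to 1.193, 1.245 and 1.278 CPM (−1.86 ± 0.175, edgeR adjusted p = 0.000188). Over the 3 places on either side of each gene, 15 protein-coding neighbours were tested, cysl-3 among them. Of these 8 fell and 4 rose, against 21.0% lower and 20.0% higher among all tested genes. The examples named were picked with their values known. Around rips-1 3 of 4 fell and 0 rose. Around rhy-1 2 of 5 fell, among them oac-54, and 2 rose, among them W07A12.4 (1.22 ± 0.289, edgeR adjusted p = 0.00993). Around cysl-2 3 of 6 fell and 2 rose. There the short-chain dehydrogenase gene dhs-8 was lower (−1.39 ± 0.422, edgeR adjusted p = 0.0276) at levels of at most 1.188 CPM, and K10H10.5 rose (1.55 ± 0.353, edgeR adjusted p = 0.00813) at levels of at most 0.784 CPM. The dhs-8 call was lost with library size only (adjusted p = 0.05004), and when OP50 replicate 1 (0.119), FUDR replicate 1 (0.0563) or FUDR replicate 3 (0.0646) was left out.

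**Figure D4:**
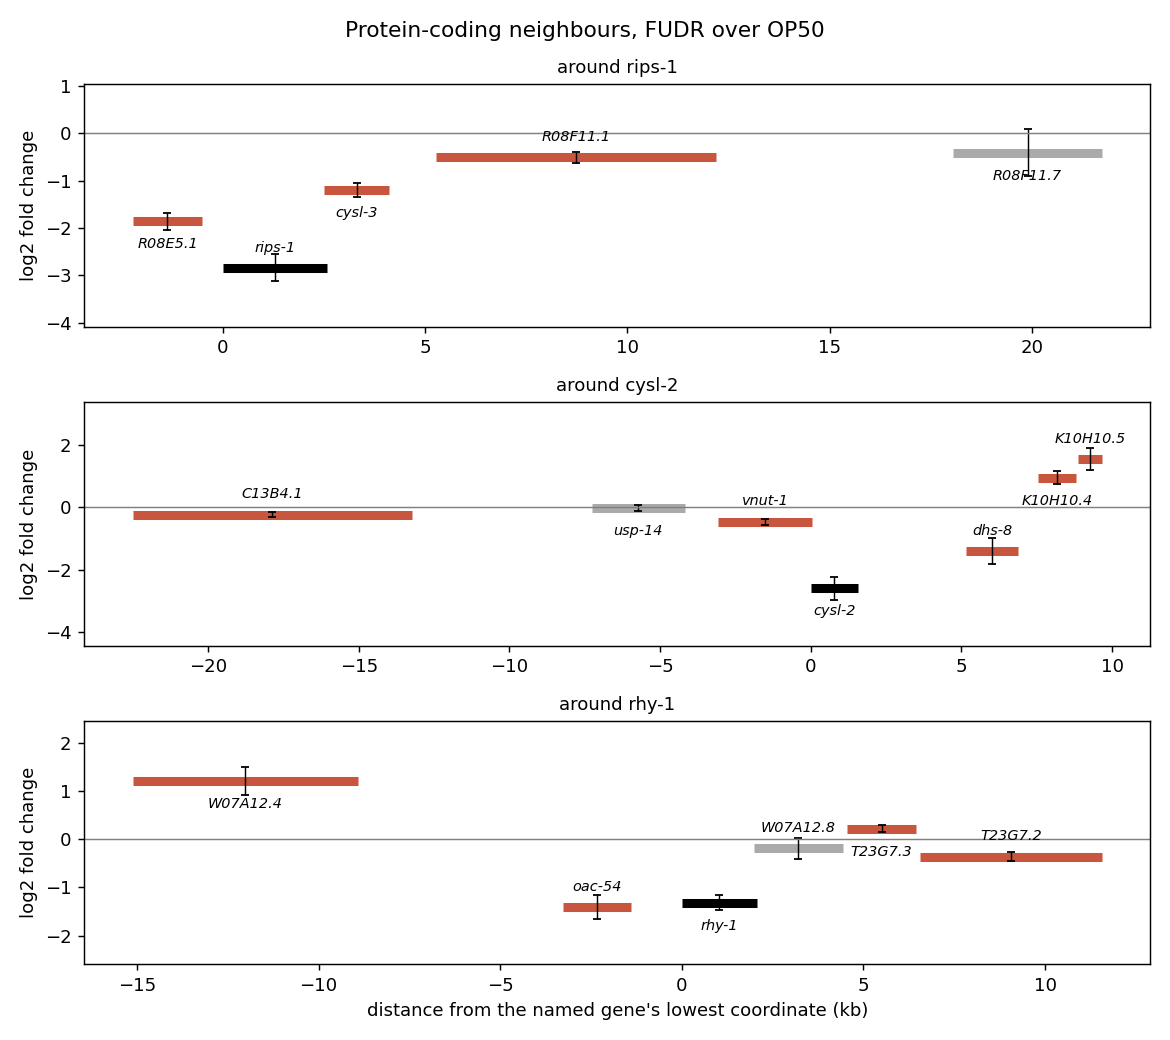
Log2 fold change of FUDR over OP50 (vertical axis, error bars are the SE) for the tested protein-coding genes up to 3 places either side of rips-1, cysl-2 and rhy-1; the horizontal axis is the distance in kb from the named gene's lowest coordinate, and each bar spans a gene. Black is the named gene, red passed an adjusted p of 0.05 and grey did not. The genes flanking rips-1, R08E5.1 and cysl-3, are at −1.86 and −1.20.

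The genes whose pattern was most like those of cysl-2 and rips-1 were sought by Pearson's r of log2 CPM over the 6 libraries, among 10355 other genes that averaged 5 CPM or more. The points share libraries and scaling, and the 2 groups stand apart in them, so r is given as a description only. For cysl-2 the closest were Y66D12A.6 (r = 0.996), cysl-3 (0.991), E02H4.7 (0.989), Y7A5A.1 (0.988) and the choline kinase family gene ckb-4 (0.988). For rips-1 they were wrb-1 (0.997), the hedgehog-related gene wrt-4 (0.997), WBGene00009651 (0.996), C06A5.8 (0.996) and hal-2 (0.996). By deviations from the group means alone, which leave the difference between the groups out, they were F33D4.6, mctp-1, Y48G1A.2, W02A2.8 and sod-4 for cysl-2 (r between 0.978 and 0.990), and utx-1, dnc-4, oac-14, F47B3.4 and WBGene00002212 for rips-1 (r between 0.980 and 0.993). By that measure cysl-3 had r = 0.948 with cysl-2 (rank 42 among the 10355 genes) and rips-1 had r = 0.719 (rank 420). With cysl-2, rhy-1 had r = 0.0814 (rank 3542) and hif-1 r = −0.0198 (rank 4588). The deviations of cysl-2 lay almost wholly in OP50, with an SD of log2 CPM of 0.882 there against 0.0669 in FUDR.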

How the data were processed

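Raw read counts per gene were deposited by the authors as 1 table of 6 libraries, made on the build WBcel235 with STAR and HTSeq, per the submitters' processing notes. RNA extraction used a Zymo kit, followed by NEBNext poly(A) isolation and NEBNext Ultra library preparation, per the labels' protocols. Tool versions, annotation release and strand setting: not given in the sources used here. The 5 HTSeq summary rows held between 4.55% and 5.33% of the counts per library and were left out. Positions came from Ensembl release 115 of WBcel235.

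Genes were filtered with filterByExpr (minimum count 10, minimum total 15), TMM-normalised and tested with edgeR 4.0.16 in R 4.3.3 by its robust quasi-likelihood test. P-values were Benjamini-Hochberg adjusted over all tested genes, with a threshold of 0.05. The SE is the log2 fold change divided by the square root of F. On counts simulated for FUDR against OP50 (16838 genes), the fit called 78 of the 106 genes given a 2-fold difference. It called 22 of the 91 given a 1.5-fold difference, and false calls made up 10 out of 110. The genes given a difference were a far smaller share than the 41.0% of tested genes called in the data. The adjusted threshold depends on that share, so these rates do not carry over to the real contrast. Pairs of libraries within a group differed by at least 19.6 in chi-square per degree of freedom, above sampling noise. The members and lists were chosen with earlier results of these data known. Of the written symbols, mpst-5, sqrd-2, moc-4 and opt-2 were matched to no gene. All genes are named for lists with up to 9 tested genes, and the 6 with the smallest p for the larger list, together with overlapping genes and the 5 most alike in pattern by each measure. The alternatives were DESeq2 1.42.0, limma-voom (limma 3.58.1), RLE, upper quartile and no scaling factor, no filter, at least 5 CPM in 3 libraries, a fit that was not robust, a block on replicate number, and each library left out in turn.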

Additional observations from a re-analysis of the deposited data

How the results depend on the processing

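The values of rips-1, rhy-1 and cysl-3 kept their direction and their side of the threshold under all 15 alternatives, with log2 fold changes from −3.09 to −2.63, from −1.54 to −1.08 and from −1.36 to −0.98. Those of cysl-2 ran from −2.94 to −2.18. The number of the 10 genes past the threshold as higher was 1 with the filter of 5 CPM, upper quartile scaling or library size only (cysl-1), and 0 in each fit that left out a library. The number lower was between 4 and 5 with a library left out.

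In the 5 lists together, 10 fell and 2 rose. The number that rose was 1 with no filter, RLE scaling or the replicate block, 4 with upper quartile scaling, 8 with library size only, and between 1 and 3 with a library left out. The number that fell was 4 with the filter of 5 CPM (which tests fewer genes), 6 with library size only, and between 7 and 14 with a library left out. Over all genes 3397 rose and 3582 fell. With library size only 5814 rose and 1931 fell, so that 75.07% of calls were higher against 48.67% with TMM and 66.63% with upper quartile scaling. Leaving out a library gave between 2327 and 3400 rises and between 2679 and 3834 falls.

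Signs turned only in genes that had not passed, all by small values. With library size only the log2 fold change was 0.13 for cdo-1, 0.22 for aha-1, 0.01 for swan-1 (0.0067), 0.0842 for phy-2, 0.15 for moc-3 and 0.05 for W07A12.8 (0.045). With upper quartile scaling it was 0.05 for cdo-1 (0.0549), 0.14 for aha-1, 0.01 for phy-2 (0.0063) and 0.0729 for moc-3. With the filter of 5 CPM it was 0.01 for cdo-1 (0.0128), 0.10 for aha-1 and 0.0313 for moc-3. It was −0.01 for egl-9 with limma-voom (−0.0118), and −0.0050 for ftn-1 with RLE scaling and with DESeq2. With a library left out, egl-9 ran from −0.18 to 0.23, aha-1 from −0.0437 to 0.0317, pck-1 from −0.49 to 0.0099, ftn-1 from −0.14 to 0.19, moc-3 from −0.20 to 0.0407, moc-5 from −0.03 to 0.0713 and ZK1127.3 from −0.0374 to 0.0807. The median of all genes moved by 0.23 on the log2 scale with library size only and by 0.15 with upper quartile scaling. The cause of the turned signs was not tested for any of these genes.

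Whether the replicate numbers pair the libraries is not settled here. Deviations of same-numbered libraries over all tested genes correlated at 0.0551, −0.0166 and 0.0576, which cannot exclude a pairing. On the second principal component (10.5% of the variance) libraries 1, 2 and 3 stood at 26.2, −10.93 and −18.78 in OP50. In FUDR they stood at 24.12, 5.454 and −26.06. With a block on replicate number the SE of rips-1 went from 0.283 to 0.0988, and that of cth-1 from 0.199 to 0.221. With the replicate block 3215 genes rose and 3547 fell, 5 of the 10 genes were lower and 0 higher, and 3 named genes changed their side of the threshold, with an edgeR adjusted p of 0.057 for F22B5.4, 0.045 for mpst-1 and 0.0601 for dhs-8. Of the 5 genes most like cysl-2 by log2 CPM 2 remained with no minimum level, and by deviations 3 remained with RLE scaling and 0 with no minimum level. Of those most like rips-1 by deviations 1 remained with no minimum level. A floor of 3 counts is between 0.0315 and 0.0496 CPM, covering counting error only.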
